A study of Mus musculus with 9 samples.

Results

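The genes described here are the interleukins and interleukin receptors of the mouse left ventricle, defined as every row of the count table whose symbol begins with Il and a number. There were 83 such genes among 55367 symbols. By role, 37 were ligands (subunits included), 38 were receptor or accessory chains, 6 were antagonists, binding proteins or decoy receptors, 1 was an enzyme (Il4i1) and 1 an antisense transcript (Il1bos). The rule for membership used symbols only and no measured value, but it was chosen with earlier results of these data known. Total RNA was sequenced in 9 libraries from hearts after sham surgery (Sham), myocardial infarction (MI) or MI together with treatment by BPD (MI+BPD), 3 libraries in each group. The tissue was left ventricle at day 14 after MI and took in both the infarct core and the tissue around it. Sham hearts have no infarct, and no time of their own is given for them. BPD, said to be aimed at the proliferative phase of repair, is not spelled out, and its dose and schedule, the strain, genotype, sex and age of the mice and whether a library is 1 animal do not appear in the sources used here. Where libraries of a group do not come from separate animals, the p-values below measure only the spread between these libraries.

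Interleukins are secreted proteins by which immune and tissue cells signal to each other, and each acts through a receptor built of several chains at the cell surface. Members of the IL-1 family (IL-1, IL-18, IL-33 and IL-36) use receptors with an intracellular TIR domain that pass the signal through MyD88 to NF-kB. Most other interleukins use receptors without enzyme activity of their own, which signal through Janus kinases and STAT proteins. Receptors within a family share a chain: gp130 (Il6st) for IL-6 and IL-11, the common gamma chain (Il2rg) for IL-2, IL-4, IL-7, IL-9, IL-15 and IL-21, and IL-10R2 (Il10rb) for IL-10 and its relatives. In the infarcted heart these signals are known for the recruitment of leukocytes, for clearance of dead muscle and for the activation of fibroblasts that lay down the scar.

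Total counts ran from 14451410 to 19269072 per library. Genes of the mitochondrial DNA took 34.4% to 35.2% of the counts of a Sham library, 11.4% to 18.2% of an MI library and 17.6% to 25.7% of an MI+BPD library. Summed cardiomyocyte markers (8 genes) were 75630.2, 77089 and 79889.7 CPM in Sham 1 to 3 against 17999, 19065 and 30579 in MI 1 to 3 and 43624, 29474 and 29309 in MI+BPD 1 to 3, where CPM is the read count scaled by library size and TMM factor. Macrophage and monocyte markers summed to 318, 303 and 378 CPM in Sham against 1119, 907 and 631 in MI and 1002, 830.0 and 1108 with MI+BPD. In MI against Sham, 10 of 10 macrophage, 7 of 8 T cell, 5 of 5 tested B cell and 7 of 7 fibroblast markers were called higher, and 8 of 8 cardiomyocyte markers lower. Only 2 of 5 plasma cell markers and 1 of 8 natural killer and innate lymphoid cell markers were tested, and these were called higher. Of the 4 eosinophil markers 0 were tested. Other lists were mixed or mostly not called. Of 6 dendritic cell markers 5 were higher and 1 lower, and of 6 smooth muscle markers 2 and 3. Of 6 endothelial markers 0 were higher and 4 lower. Higher were 1 of 5 tested neutrophil and 1 of 6 tested mast cell markers. Across all tested genes 37.0% were called higher and 31.9% lower. No marker list held a gene at 0 in every library. MI 1 stood apart from the other MI libraries in B cell markers (58.6 against 5.94 and 4.14 CPM) and plasma cell markers (401 against 84.8 and 46.6). It did so too in neutrophil markers (52.0 against 13.5 and 8.88) and mast cell markers (35.4 against 16.1 and 16.2). In bulk tissue, a change in the number of cells that express a gene and a change in its RNA per cell cannot be told apart. The part of these markers in the results below was not tested. A value without MI 1 shows only how far a result depends on that library.

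Most of the genes that could be tested were receptor chains. In all, 13 of the 83 genes had no count in any library, 12 had 1 to 9 counts over the 9 libraries, 19 had 10 or more but did not pass the filter on low counts, and 39 passed it and were tested. Of the 38 receptor chains 25 were tested and 2 had no count; of the 37 ligands 11 were tested and 11 had no count. The 13 genes listed at 0 were Il3, Il9, Il13, Il20, Il21, Il22, Il24, Il31, Il1f6, Il1f8, Il1f10, Il11ra2 and Il1rapl2, among them T cell ligands (Il9, Il13, Il21, Il22) and the IL-36 ligands Il1f6 and Il1f8. A count of 0 in a library allows up to 3 counts, between 0.119 and 0.274 CPM depending on the library, and covers counting error only. Il11ra2 is a near-identical copy of Il11ra1, so how their reads were shared is uncertain. Together the 83 genes summed to 486 to 503 CPM (here by total counts, with no TMM scaling) in Sham, 1011 to 1489 in MI and 1027 to 1154 with MI+BPD, with no overlap between Sham and either other group. Part of this gap comes from the scaling. By total counts the median log2 change of all tested genes was 0.81 in MI and 0.57 in MI+BPD against Sham, beside 0.07 and 0.04 with TMM.

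A few receptor chains held most of the signal. Compared per kilobase of exon, the highest levels in Sham were Il10rb at 23.8 CPM per kb, Il6st at 22.1, Il13ra1 (a chain of the IL-13 receptor) at 21.4 and Il15 at 15.3, the only ligand among them. In MI, Il6st led at 36.7 CPM per kb, followed by Il13ra1 at 24.0, Il11ra1 at 15.9, Il33 at 12.7 and Il1r1 at 11.7. Il33 had ranked 10 of the 39 tested genes in Sham and ranked 4 in MI, while Il15 went from rank 4 to rank 10. Il6st alone made up 37.0% ± 1.01 of all counts of the 83 genes in Sham against 39.8% ± 0.573 in MI and 39.0% ± 3.99 with MI+BPD (SD, 3 libraries per group). The share of Il10rb was 13.7% ± 0.625 in Sham and 4.11% ± 1.17 in MI, and that of Il1r1 3.63% ± 0.419 and 7.18% ± 1.24 (SD, n = 3 each).

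Infarcted hearts had more transcript of most interleukin ligands and receptors that could be measured, and less of 3. Of the 39 tested genes, edgeR called 29 higher and 3 lower (Il15, Il15ra and Il10rb) in MI than in Sham at an adjusted p under 0.05, and 7 were not called. Across all 15138 genes tested 37.0% were called higher and 31.9% lower. The median log2 change of the 39 was 1.16 against 0.07 over all tested genes. Libraries of MI and Sham did not overlap for 33 of the 39, against 74.4% of all tested genes. A gene near 0 in Sham passes the filter only where MI or MI+BPD is high, so these counts describe the genes tested and not the 83. Of the 29 called higher, 18 had at least 10 counts in every Sham library and 11 did not. The change was at least 1 on the log2 scale for 22 of the 29, at least 2 for 11 and at least 3 for 3 (Il7r, Il1b and Il6). Within MI, MI 3 held the lowest value of 24 of the 29 genes and MI 1 the highest of 18. MI 3 also had the lowest macrophage sum and the highest cardiomyocyte sum of the MI libraries.

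**Figure D1:**
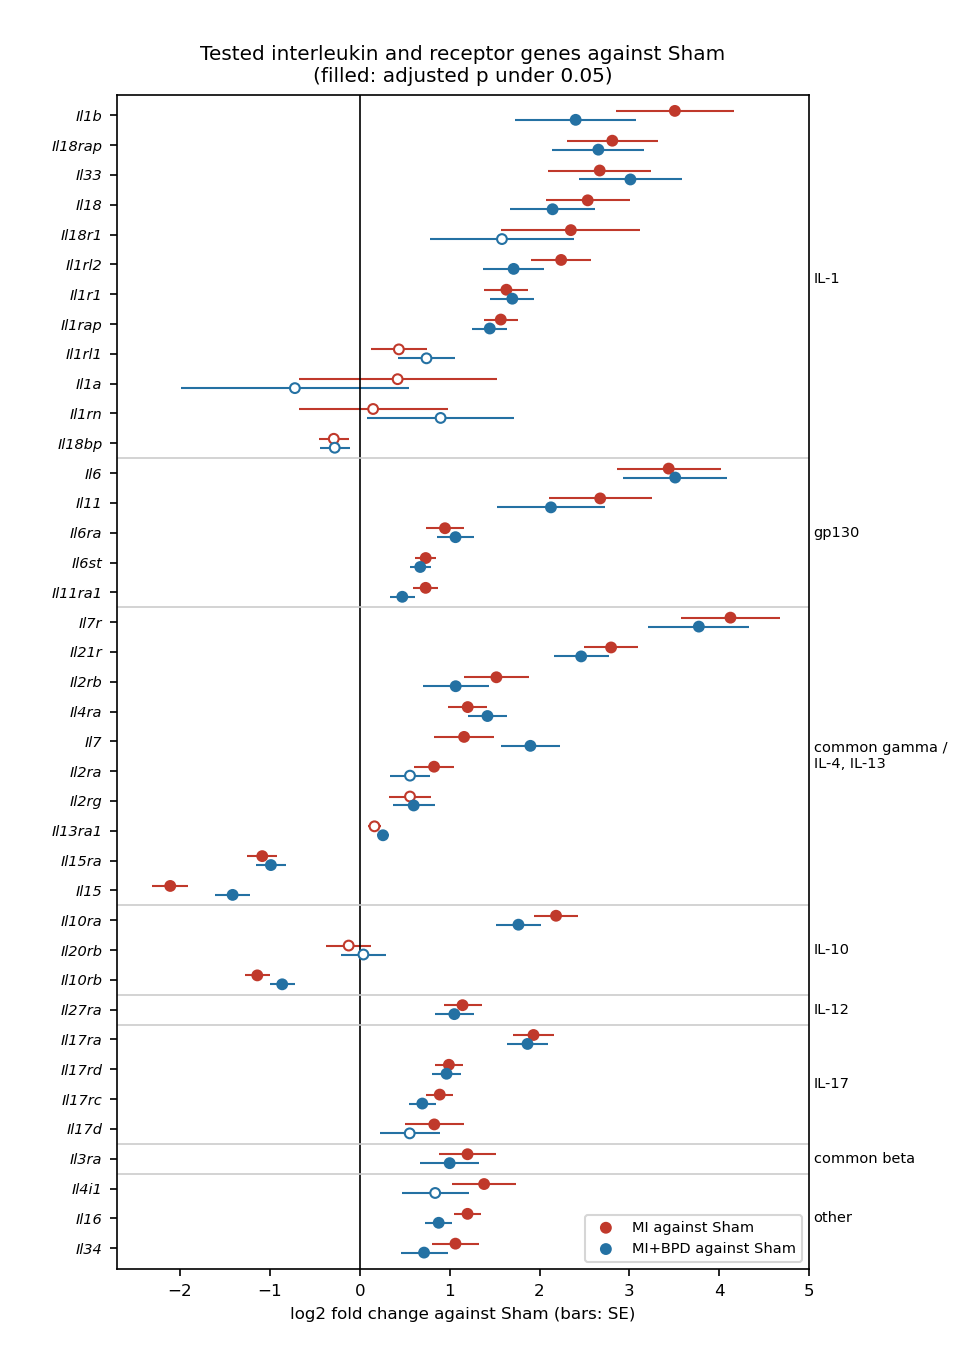
Log2 fold change against Sham (x axis, bars are SE) of the 39 tested interleukin and receptor genes, ordered by family, for MI (red) and MI+BPD (blue), 3 libraries per group. Filled points passed an adjusted p of 0.05 in edgeR; 29 genes lie to the right as filled red points and Il15, Il15ra and Il10rb lie to the left in both comparisons, which share the Sham libraries.

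In the IL-1 family most tested ligands and signalling receptors were called higher. Of its 20 genes 12 were tested: 8 were called higher, none lower and 4 not (Il1a, Il1rn, Il18bp and Il1rl1). Il1b, the main secreted IL-1 of macrophages, measured 0.732, 1.22 and 0.991 CPM in Sham against 9.18, 20.2 and 4.37 in MI and 7.79, 2.72 and 5.28 with MI+BPD. All 6 infarct libraries were above all Sham libraries, and the MI values spread more than 4-fold. Il1b rose by 3.51 ± 0.65 (SE) on the log2 scale in MI, with an adjusted p of 0.00110, and by 2.78 without MI 2. Il33, an alarmin released by damaged stromal cells, measured 4.67, 6.56 and 6.02 CPM in Sham against 52.3, 40.3 and 17.3 in MI and 83.9, 22.2 and 33.8 with MI+BPD. It was the most abundant IL-1 ligand per kilobase in each group, and the groups did not overlap with Sham. Its rise was 2.67 ± 0.57 in MI (adjusted p = 0.00250). Il18, which drives interferon gamma production by lymphocytes, measured 0.457, 0.525 and 0.305 CPM in Sham against 3.84, 2.24 and 1.38 in MI and 2.52, 1.54 and 1.68 with MI+BPD. Every infarct library was above the highest Sham library, and the change in MI was 2.54 ± 0.47 (adjusted p = 0.00103). Il1a, the IL-1 kept inside cells until damage, measured 0, 0 and 0.915 CPM in Sham and 0.475, 0.611 and 0.230 in MI. The groups overlapped, and its Sham signal came from Sham 3 alone. Without Sham 3 it was at 0 in Sham, and the adjusted p was 0.0493.

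Of 6 tested signalling receptors of this family 5 were called higher. Il1r1, which binds both forms of IL-1, measured 27.3, 23.0 and 21.9 CPM in Sham against 97.4, 69.9 and 55.9 in MI and 101, 58.0 and 74.9 with MI+BPD. Sham and infarct libraries were apart, and the rise in MI was 1.63 ± 0.24 (adjusted p = 0.000323). Il1rl2, the receptor of the IL-36 ligands, measured 4.76, 3.15 and 3.66 CPM in Sham against 27.9, 14.9 and 11.7 in MI and 15.3, 11.5 and 11.1 with MI+BPD. It rose by 2.24 ± 0.34 (adjusted p = 0.000330), whereas its ligands Il1f6 and Il1f8 had no count and Il1f9 had 3 counts over Sham and 5 over MI. Il1rap, the accessory chain shared by the IL-1, IL-33 and IL-36 receptors, measured 7.78, 7.61 and 5.49 CPM in Sham and 22.2, 23.1 and 16.4 in MI. All MI libraries lay above Sham, a change of 1.57 ± 0.19 (adjusted p = 0.000127). Il18rap, the accessory chain of the IL-18 receptor, went from 0.0915, 0.875 and 0.305 to 3.72, 3.26 and 2.03 CPM, a change of 2.81 ± 0.51 (adjusted p = 0.000917; 3.82 without Sham 2). Il18r1, its binding chain, went from 0.549, 1.31 and 0.229 to 6.33, 2.69 and 1.47 CPM, a change of 2.35 ± 0.77 (adjusted p = 0.0218). For both the groups were apart, but the gap of Il18r1 was small and its call was lost without MI 1 (log2 change 1.60, adjusted p = 0.0855), without Sham 1 (0.0719), without Sham 3 (0.0815) or with no filter (0.0710). Without Sham 2 its change was 3.18. Il1rl1, which encodes the IL-33 receptor ST2, measured 1.83, 2.62 and 3.66 CPM in Sham and 4.08, 3.30 and 3.68 in MI. The values were close, with a log2 change of 0.44 ± 0.31 and an adjusted p of 0.242. With library totals in place of TMM scaling it passed, at 1.17 (adjusted p = 0.00361), where the median of all genes stood at 0.81. The log2 ratio of Il33 to Il1rl1 counts was 1.12 ± 0.350 in Sham and 3.17 ± 0.817 in MI (SD, n = 3 each). All MI libraries were above all Sham libraries in this ratio (exact permutation p = 0.1, two-sided, the smallest that 3 against 3 can give). Adjusted over the 12 ratio tests made, 6 ratios in 2 comparisons, the p was 0.3.

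Of the inhibitors of the family, Il1rn and Il18bp were tested and not called, and the decoy Il1r2 did not pass the filter but was counted in infarct libraries only. Il1rn, the receptor antagonist that blocks IL-1, measured 0.274, 0.787 and 3.74 CPM in Sham against 0.950, 2.61 and 1.93 in MI and 5.63, 2.62 and 1.07 with MI+BPD. Its Sham libraries differed more than 10-fold, Sham 3 was above every MI library, and the log2 change was 0.15 ± 0.83 (adjusted p = 0.884). Il18bp, the soluble protein that neutralises IL-18, measured 10.2, 12.2 and 9.30 CPM in Sham and 8.55, 7.25 and 10.1 in MI. The groups overlapped, with a log2 change of -0.29 ± 0.17 (adjusted p = 0.146); this became 0.44 (adjusted p = 0.0361) with library totals and -0.45 (0.0185) in limma-voom. The log2 ratio of Il18bp to Il18 counts, which does not depend on scaling between libraries, was 4.51 ± 0.226 in Sham and 1.89 ± 0.867 in MI (SD, n = 3 each). The groups did not overlap (exact permutation p = 0.1, adjusted p = 0.3). For Il1rn to Il1b the ratio was -0.01 ± 1.66 in Sham and -2.45 ± 1.12 in MI (SD, n = 3 each) and the groups overlapped (exact permutation p = 0.2, adjusted p = 0.343). Il1r2, the decoy receptor that binds IL-1 without signalling, had no count in Sham, 15, 10 and 3 counts in MI 1 to 3 and 30, 4 and 9 in MI+BPD. Against the 3 counts that 0 allows over the group, Il1r2 was 4.63-fold higher in MI and 3.32-fold without MI 1 (13 counts). These folds leave out the counting error of the MI counts. With no filter on low counts it was called higher (adjusted p = 0.0395). In the GENCODE M21 annotation Il1r2, Il1r1, Il1rl2, Il1rl1, Il18r1 and Il18rap follow one another on the plus strand of chromosome 1 with no other coding gene between them. In this row of 6 genes, 4 were called higher, Il1rl1 was not called and Il1r2 was not tested.

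**Figure D2:**
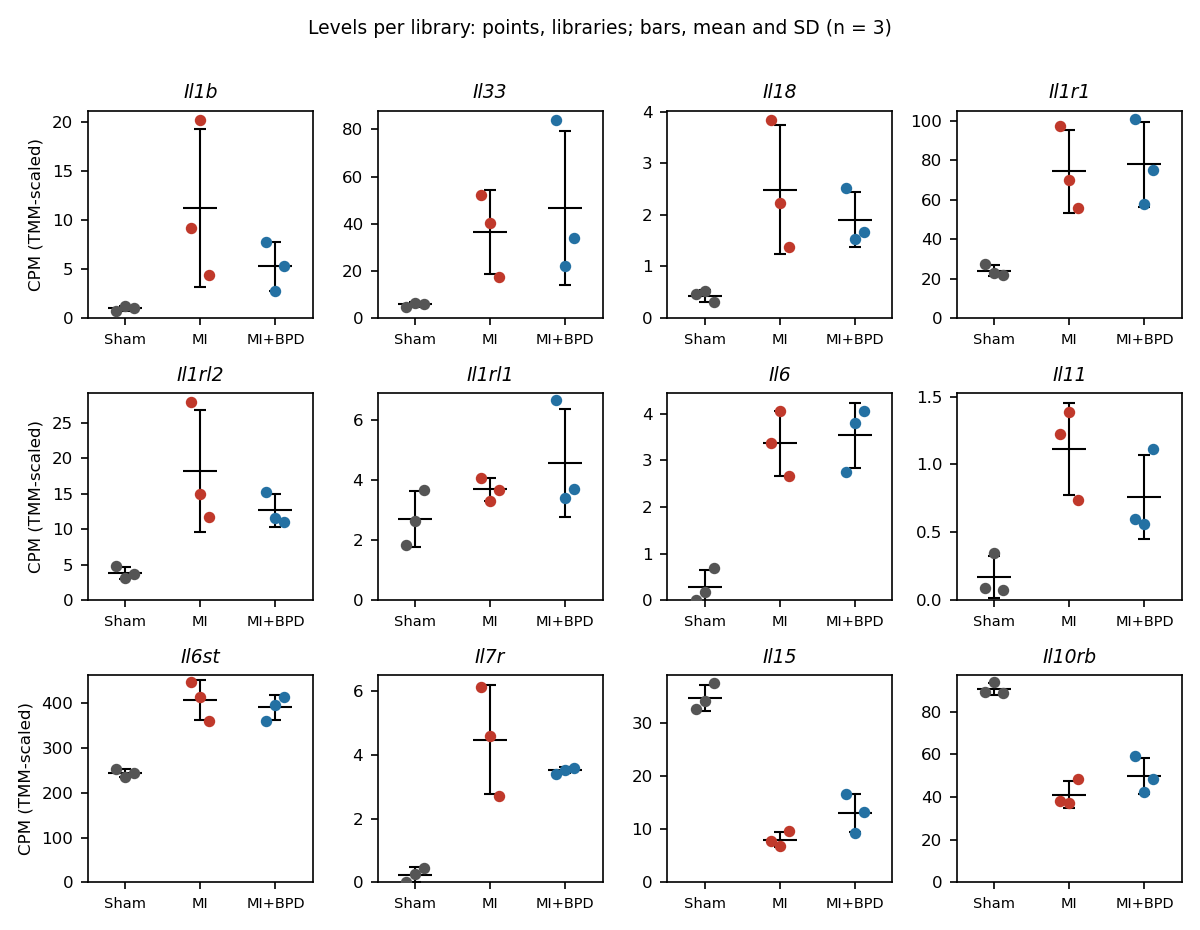
TMM-scaled CPM (y axis, linear from 0) in each library of 12 interleukin and receptor genes; points are libraries and bars are the mean and SD of 3. Il1b, Il33, Il18, Il6 and Il7r lie near 0 in Sham and higher in both infarct groups, the Il1rl1 groups overlap, and Il15 and Il10rb are highest in Sham.

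The gp130 family had 5 tested genes of 8, and edgeR called each of the 5 higher. Il6, the acute-phase cytokine of macrophages and fibroblasts, measured 0, 0.175 and 0.686 CPM in Sham against 3.36, 4.07 and 2.67 in MI and 2.76, 3.80 and 4.06 with MI+BPD. Sham held 0, 2 and 9 counts, and each infarct library was above all of them. The rise in MI was 3.44 ± 0.58 (adjusted p = 0.000603), and 2.91 to 5.13 when 1 library was left out, the highest without Sham 3. Il11, a cytokine known for acting on fibroblasts, measured 0.0915, 0.350 and 0.0762 CPM in Sham against 1.23, 1.38 and 0.736 in MI and 0.599, 0.565 and 1.12 with MI+BPD. It stayed low throughout, with the infarct groups above Sham, and rose by 2.67 ± 0.57 in MI (adjusted p = 0.00245), and by 3.64 without Sham 2. Per kilobase of exon in MI, Il6st (36.7 CPM) and Il11ra1 (15.9) stood above Il6ra (1.90), Il6 (1.39) and Il11 (0.536). Il6st measured 254, 236 and 245 CPM in Sham and 447, 415 and 359.6 in MI, a change of 0.73 ± 0.12 (adjusted p = 0.000413). Il11ra1, which binds IL-11, went from 41.2, 41.7 and 45.4 to 63.2, 85.9 and 64.3 CPM, a change of 0.73 ± 0.14 (adjusted p = 0.00116). Il6ra, which binds IL-6, went from 8.60, 7.35 and 9.61 to 21.7, 15.8 and 11.9 CPM, a change of 0.95 ± 0.21 (adjusted p = 0.00284). In these 3 receptors the MI libraries lay above all Sham libraries. The log2 ratio of Il6ra to Il6st counts was -4.85 ± 0.169 in Sham and -4.67 ± 0.276 in MI (SD, n = 3 each), overlapping (exact permutation p = 0.5, adjusted p = 0.6).

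Promoters of 4 ligands with large rises are shown because ligand genes of this kind are textbook targets of NF-kB and AP-1. Each line is the 150 bases before a RefSeq start (GRCm38.p6), written 5′ to 3′ on the gene's strand. Capitals mark the NF-kB letters (GGG, any 2 bases, then TTTCC) in Il6 and the AP-1 letters TGANTCA in Il11, found on either strand; the 2 motifs do not overlap here. The positions are chr5:30012964-30013113 on the plus strand, chr7:4778142-4778291 on the minus strand (the second of its 2 listed starts), chr2:129371140-129371289 on the minus strand and chr19:29924963-29925112 on the plus strand (the first of its 2).
Il6: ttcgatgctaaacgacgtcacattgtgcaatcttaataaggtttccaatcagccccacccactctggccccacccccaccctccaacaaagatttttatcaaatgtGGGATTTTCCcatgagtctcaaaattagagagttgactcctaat
Il11: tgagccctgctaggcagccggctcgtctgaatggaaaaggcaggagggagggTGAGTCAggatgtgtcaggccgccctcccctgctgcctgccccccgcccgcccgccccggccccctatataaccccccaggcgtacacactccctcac
Il1b: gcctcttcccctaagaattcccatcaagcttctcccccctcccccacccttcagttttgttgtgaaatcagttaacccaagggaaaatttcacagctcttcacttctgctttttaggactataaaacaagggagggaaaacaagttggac
Il33: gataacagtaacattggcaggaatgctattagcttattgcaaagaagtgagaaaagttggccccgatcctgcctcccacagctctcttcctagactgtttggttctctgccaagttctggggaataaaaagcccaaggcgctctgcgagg
The Il6 match begins 44 bases and the Il11 match 98 bases before the start; Il6 also holds the AP-1 letters farther from its start, outside the stretch shown. The search covered the 250 bases before each start and found neither of these motifs nor the STAT letters TTCNNNGAA in Il1b or Il33. It also found none of them before the first listed start of Il11, which is not shown. Among the 32851 mouse promoters in the table, 1.41% held the NF-kB letters, 6.75% the AP-1 letters and 7.02% the STAT letters. RefSeq promoters were listed for 66 of the 83 genes. Of their 81 promoters, 7.41% held the NF-kB letters (6 promoters), 17.28% the AP-1 letters and 11.11% the STAT letters. Of the 31 promoters of genes called higher in MI, 3 held the NF-kB letters (Il6, Il16 and Il17rc) and 3 the AP-1 letters (Il6, Il11 and Il16), which is 9.68% for each, and 6.45% held the STAT letters. Of the 12 promoters of tested genes not called higher, 8.33% held the NF-kB letters, 25.0% the AP-1 letters and none the STAT letters. These are letter matches and no measure of binding.

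The common gamma chain and IL-4/IL-13 family moved in both directions: of 10 tested genes of 17, 6 were called higher, 2 lower and 2 not. Il7r, the IL-7 receptor of lymphocytes, had the largest fitted log2 change of the 39 genes with all libraries in. It measured 0, 0.262 and 0.457 CPM in Sham (0, 3 and 6 counts) against 6.14, 4.60 and 2.72 in MI and 3.41, 3.54 and 3.61 with MI+BPD. All infarct libraries lay well above Sham, and the rise in MI was 4.12 ± 0.55 (adjusted p = 0.000190). Leaving out 1 library gave 3.59 to 5.0, the highest without Sham 3, where the fitted values of Il6 and Il1a were above it. Its ligand Il7, made by stromal cells, measured 0.366, 0.350 and 0.686 CPM in Sham against 0.871, 1.02 and 1.33 in MI and 1.80, 1.59 and 1.98 with MI+BPD. The 3 groups did not overlap, and the change in MI was 1.16 ± 0.33 (adjusted p = 0.0115). Il21r, the IL-21 receptor, went from 0.640, 1.14 and 1.14 to 8.19, 7.65 and 4.69 CPM in MI, a change of 2.80 ± 0.30 (adjusted p = 7.49e-05). Il2rb, shared by the IL-2 and IL-15 receptors, went from 0.640, 0.875 and 0.686 to 2.81, 2.36 and 1.15 CPM (1.52 ± 0.36, adjusted p = 0.00413). Il2ra, the high-affinity chain for IL-2, went from 2.29, 2.45 and 2.97 to 5.15, 4.84 and 3.73 CPM (0.83 ± 0.22, adjusted p = 0.00796). In these 3 receptors no MI library fell within the Sham range. Il2rg, the shared chain itself, measured 2.93, 4.90 and 3.05 CPM in Sham and 6.14, 5.62 and 4.23 in MI. The groups overlapped, and the change of 0.56 ± 0.23 did not pass (adjusted p = 0.0543; 0.0123 in limma-voom). In GENCODE M21, 728 of the 2387 exon bases of Il2rg are shared with Gm20489 on the same strand, so its count is uncertain.

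Of the IL-4 and IL-13 receptor chains tested, Il4ra was called and Il13ra1 was not. Il4ra, the chain both cytokines use, measured 16.2, 17.8 and 16.3 CPM in Sham against 39.4, 46.0 and 30.1 in MI and 58.9, 32.6 and 43.2 with MI+BPD. Every infarct library was above Sham, a change of 1.20 ± 0.22 in MI (adjusted p = 0.000992). Il13ra1, its partner chain, measured 78.1, 75.6 and 84.9 CPM in Sham and 85.6, 88.3 and 93.6 in MI. The levels were close though the groups did not overlap, at 0.16 ± 0.07 on the log2 scale (adjusted p = 0.0642); with library totals the value was 0.90 (adjusted p = 1.51e-05), against a median of 0.81 over all genes. Il13ra2, the decoy receptor of IL-13, did not pass the filter and held 0, 1 and 1 counts in Sham against 11, 29 and 14 in MI and 8, 5 and 5 with MI+BPD. Its ratio of MI to Sham was 13.4 (95% exact binomial interval 3.53 to 113, counting error only), and 16.5 (4.29 to 140.4) without MI 1. With no filter on low counts Il13ra2 was called higher in MI against Sham by edgeR (adjusted p = 0.00104). It was also tested and called higher with only the groups compared and in most fits that left out 1 library. Il4 had 1 count over Sham and 1 over MI, and Il13 none.

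Il15 and its binding chain Il15ra fell, while of the chains IL-15 shares with IL-2, given above, Il2rb was called higher and Il2rg was not called. Il15, a cytokine that sustains natural killer and memory T cells and is also made by muscle, measured 32.6, 34.1 and 37.4 CPM in Sham against 7.76, 6.84 and 9.57 in MI and 16.6, 9.34 and 13.2 with MI+BPD. The 3 Sham libraries were far above both infarct groups, and MI 3 was the highest MI library. Il15 fell by 2.11 ± 0.20 on the log2 scale in MI (adjusted p = 4.44e-05). Il15ra, the chain that presents IL-15 to neighbouring cells, measured 23.8, 26.5 and 26.0 CPM in Sham against 11.9, 9.32 and 14.8 in MI and 14.5, 12.9 and 11.1 with MI+BPD. It fell by 1.08 ± 0.16 (adjusted p = 0.000343), with no overlap between Sham and the infarct groups. Both stayed called lower with library totals, where Il15 fell by 1.38 and Il15ra by 0.36. The summed cardiomyocyte markers given above were lower in the same libraries, and their part in these results was not tested.

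The IL-10 receptor chains moved in opposite directions. Il10ra, the IL-10 binding chain of leukocytes, measured 5.12, 6.82 and 5.41 CPM in Sham against 32.0, 28.0 and 18.8 in MI and 14.4, 21.5 and 23.1 with MI+BPD. It rose by 2.18 ± 0.25 in MI (adjusted p = 9.52e-05), and no infarct library overlapped Sham. Il10rb, the shared second chain, measured 89.1, 94.1 and 88.9 CPM in Sham against 38.0, 37.0 and 48.6 in MI and 59.1, 42.3 and 48.4 with MI+BPD. It fell by 1.14 ± 0.14 on the log2 scale (adjusted p = 0.000120), and by 0.41 with library totals (adjusted p = 0.00276). In GENCODE M21, 569 of the 3808 exon bases of Il10rb are shared with Gm21970 on the same strand, so part of its reads may have been assigned elsewhere. Il20rb, a chain of the IL-20 and IL-24 receptors, measured 2.01, 1.84 and 1.52 CPM in Sham and 1.86, 1.22 and 1.84 in MI and was not called (-0.12 ± 0.25, adjusted p = 0.677); its sign turned with library totals (0.61). Il10 itself had 2 counts over Sham, 5 over MI and 6 over MI+BPD, a ratio of MI to Sham of 1.24 (0.203 to 13.0) that the depth cannot tell from no change.

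All 4 tested genes of the IL-17 family were called higher. Il17ra, the chain common to the receptors of this family, went from 4.76, 4.20 and 3.43 CPM in Sham to 20.98, 14.7 and 11.4 in MI, a rise of 1.93 ± 0.23 (adjusted p = 0.000108). Il17rc, its partner for IL-17A and IL-17F, went from 4.94, 4.29 and 4.04 to 8.19, 9.08 and 7.27 CPM (0.89 ± 0.15, adjusted p = 0.000577). Il17rd went from 16.1, 12.2 and 13.4 to 28.5, 27.1 and 27.2 CPM (0.99 ± 0.16, adjusted p = 0.000443). All MI libraries of these receptors were above all Sham libraries. Il17d, a ligand made outside the immune system, went from 1.83, 1.49 and 2.29 to 2.69, 3.38 and 3.96 CPM with a small gap between the groups. Its change of 0.83 ± 0.33 had an adjusted p of 0.0464, and the call was lost in 7 of the 9 fits that left out 1 library (adjusted p 0.0537 to 0.148) and with median-ratio factors (0.79, adjusted p = 0.0555). The ligands known from T cells were near or at 0: Il17a had 0 counts over Sham and MI and 4 over MI+BPD, and Il17f had 1 over Sham and 1 over MI+BPD. Il17rb, the receptor of IL-25, had 3 counts over Sham and 23 over MI, a ratio of 3.80 (1.15 to 19.8).

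Of the remaining tested genes, 5 were called higher. Il27ra, the binding chain of the IL-27 receptor and the only tested gene of the IL-12 family, went from 3.48, 2.19 and 2.21 CPM in Sham to 5.86, 6.31 and 5.15 in MI, a change of 1.14 ± 0.21 (adjusted p = 0.00106). Il3ra, the IL-3 binding chain, went from 1.37, 1.14 and 2.21 to 3.92, 3.95 and 3.08 CPM (1.20 ± 0.32, adjusted p = 0.00822). Il16, a chemoattractant of CD4+ cells, went from 11.99, 9.10 and 8.46 to 25.3, 21.7 and 20.6 CPM (1.20 ± 0.15, adjusted p = 0.000149). In all 3 the MI libraries lay above Sham. Il34, the second ligand of the CSF-1 receptor of macrophages, went from 3.02, 2.54 and 2.44 to 7.52, 4.11 and 5.06 CPM (1.06 ± 0.26, adjusted p = 0.00478). Il4i1, an amino acid oxidase and not a cytokine, went from 0.549, 0.612 and 0.381 to 1.86, 1.18 and 0.967 CPM (1.38 ± 0.35, adjusted p = 0.00644). For both the groups were apart. The counting is not stated to use strand, and in GENCODE M21 3505 of the 4080 exon bases of Il4i1 and 1368 of those of Il16 overlap exons of opposite-strand genes (Atf5 and Tbc1d17, and Stard5), so reads of the neighbours could be counted there. Ligand subunits of IL-12, IL-23 and IL-27 (Il12a, Il12b, Il23a and Il27) had 5 to 10 counts each over Sham and 2 to 26 over MI.

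Some receptor genes with low counts were counted mainly in MI 1. Il5ra, the IL-5 receptor of eosinophils and some B cells, had no count in Sham, 42, 3 and 2 counts in MI 1 to 3 and 1, 0 and 0 in MI+BPD. Il9r, the IL-9 receptor, had no count in Sham against 17, 1 and 4 in MI and 2, 4 and 1 with MI+BPD. Il17re, the receptor of IL-17C, had 1, 3 and 4 counts in Sham against 38, 9 and 6 in MI and 9, 3 and 4 with MI+BPD. MI 1 thus held most of the MI counts of each gene, and it is the library with the high B cell and plasma cell markers. Set against the 3 counts that 0 allows over Sham, Il5ra was 7.77-fold and Il9r 3.64-fold higher in MI. Without MI 1 the value was 1.28-fold for each, from 5 MI counts. The counting error of the MI counts is not included, so 1.28-fold does not show a rise. The ratio of Il17re was 3.29 (1.55 to 8.0) with MI 1 and 1.44 (0.572 to 3.91) without it. Eosinophil markers, of which 0 of 4 passed the filter, summed to 1.46, 0.814 and 0.184 CPM in MI 1 to 3. Their sums were 0.719, 0.616 and 0.305 CPM in MI+BPD 1 to 3 and at most 0.152 CPM in Sham. Il1rapl1, a neuronal relative of the IL-1 receptors, had no count in Sham and 12, 5 and 0 in MI. Set against 3 counts in the same way, it was 2.81-fold higher, and 1.28-fold without MI 1 (5 counts), which again does not show a rise. With no filter on low counts and all libraries in, edgeR called Il9r and Il1rapl1 higher in MI against Sham (adjusted p = 0.0255 and 0.0431). Il5ra and Il17re were not called there (adjusted p = 0.0891 and 0.102).

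**Figure D3:**
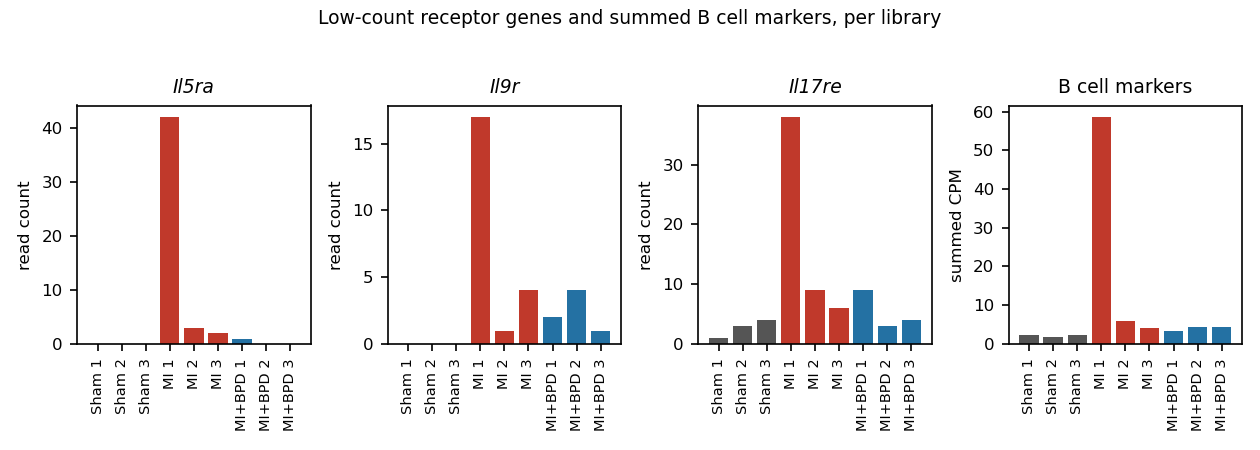
Read counts of Il5ra, Il9r and Il17re and the summed TMM-scaled CPM of 6 B cell markers in each of the 9 libraries (bars from 0; grey Sham, red MI, blue MI+BPD). In each panel MI 1 is the tallest bar, with 42, 17 and 38 counts and 58.6 CPM.

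The comparison of MI+BPD with MI asks whether treatment changed the infarcted ventricle. No interleukin or receptor gene passed: edgeR called 0 of the 39 (2 had an unadjusted p under 0.05 and the smallest adjusted p was 0.369), beside 0% of the 15138 genes tested, 2043 of which had an unadjusted p under 0.05. DESeq2 called 0 of the 39 and 51 genes in all, and limma-voom called 1 of the 39 (Il15) and 1063 in all. The log2 change was positive for 15 of the 39 and negative for 24, with a median of -0.12 against 0.00 over all tested genes; library totals moved the median of all genes to -0.20. Of the 29 genes called higher in MI against Sham, 23 had a negative value here; both comparisons use the MI libraries. Il15 had the smallest p, with 7.76, 6.84 and 9.57 CPM in MI against 16.6, 9.34 and 13.2 with treatment. The groups overlapped by MI+BPD 2, which was below MI 3, and the log2 change was 0.69 ± 0.20 (adjusted p = 0.369 in edgeR, 0.0468 in limma-voom and 0.0473 without MI 3). Il7 was higher in every MI+BPD library than in any MI library, at 1.80, 1.59 and 1.98 against 0.871, 1.02 and 1.33 CPM, a log2 change of 0.74 ± 0.27 (adjusted p = 0.369). Libraries of MI+BPD and MI did not overlap for 3 of the 39 genes, against 13.9% of all tested genes. Besides Il7 these were Il16 and Il13ra1, with log2 changes of -0.32 ± 0.14 (adjusted p = 0.370) and 0.09 ± 0.07 (0.532). With library totals the value of Il13ra1 was -0.11.

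The other genes among the 5 of smallest p in each direction overlapped between the groups. Il1b was at 11.2 ± 8.09 CPM in MI against 5.26 ± 2.53 with treatment (SD, n = 3 each), a log2 change of -1.10 ± 0.52 (adjusted p = 0.377), with the highest value in MI 2. Without MI 2 the change was -0.37, and the range over left-out libraries was -1.51 to -0.37. The log2 changes of Il10ra (-0.42 ± 0.22), Il1rl2 (-0.53 ± 0.30) and Il11ra1 (-0.26 ± 0.14) were negative, with adjusted p of 0.412, 0.427 and 0.407; Il1rl2 was at -0.08 without MI 1. Those of Il10rb (0.28 ± 0.14) and Il4ra (0.22 ± 0.21) were positive, with adjusted p of 0.388 and 0.620; Il4ra turned to -0.02 with library totals. The precision differed between genes, from Il6st (-0.06 ± 0.11) and Il17rd (-0.03 ± 0.15) to Il33 (0.34 ± 0.49) and Il18r1 (-0.77 ± 0.65). A change that misses the threshold at 3 libraries per group does not show that treated and untreated infarcts were alike. In MI+BPD the summed cardiomyocyte markers were 29309 to 43624 CPM, against 17999 to 30579 in MI, and their part in these values was not tested.

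**Figure D4:**
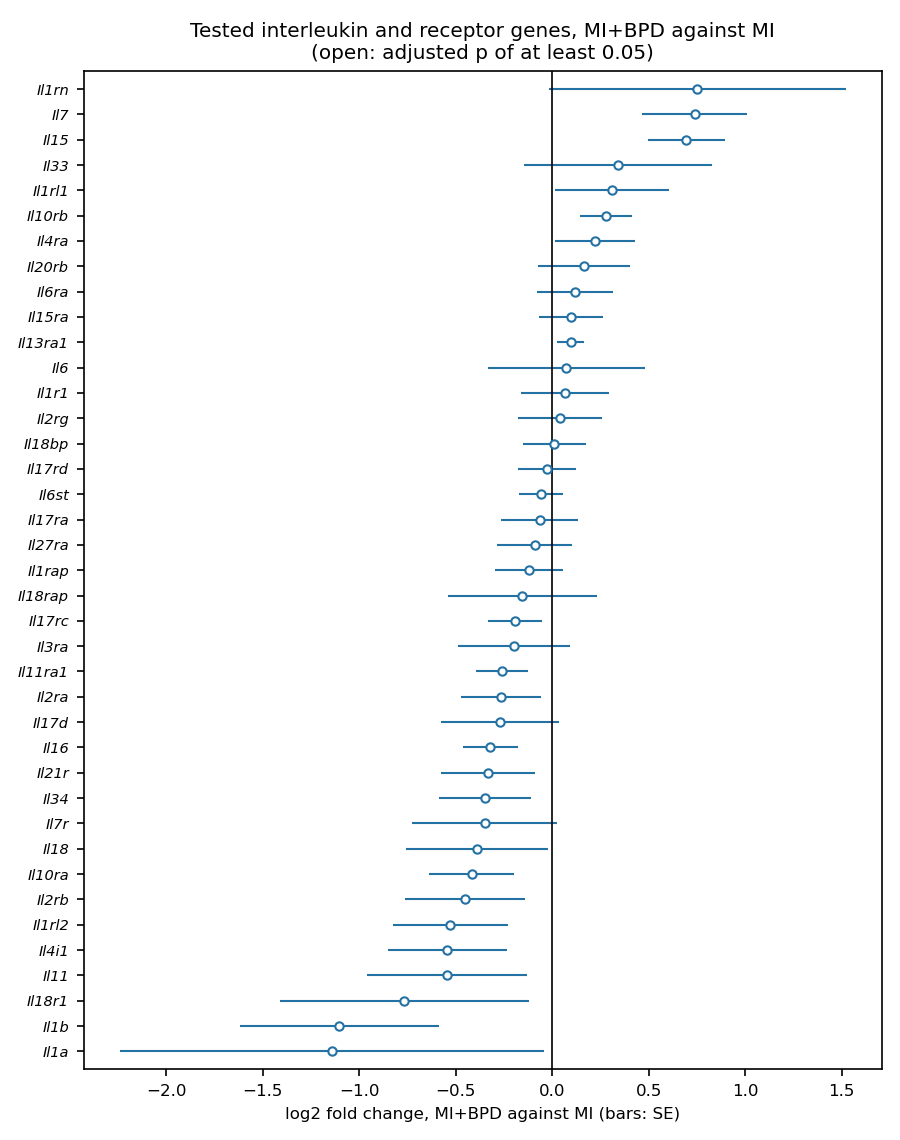
Log2 fold change of MI+BPD against MI (x axis, bars are SE, 3 libraries per group) of the 39 tested genes, ordered by value. All points are open because none passed an adjusted p of 0.05 in edgeR; Il1rn (0.75), Il7 (0.74) and Il15 (0.69) are at the upper end and Il1a (-1.14) and Il1b (-1.10) at the lower end.

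In the comparison of treated infarcts with Sham, most of the genes called in MI were called again, and both comparisons use the same Sham libraries. In MI+BPD against Sham, edgeR called 27 of the 39 higher and 3 lower, beside 31.8% and 27.8% of all genes tested. Of the 29 genes called higher in MI, 25 were also called here, and Il15, Il15ra and Il10rb were called lower in both. The median log2 change of the 39 was 1.0 against 0.04 over all tested genes. Not called here, though called in MI, were Il18r1 (1.58 ± 0.80, adjusted p = 0.115), Il17d (0.56 ± 0.33, 0.177), Il4i1 (0.84 ± 0.37, 0.0770) and Il2ra (0.56 ± 0.22, 0.0552), and none of these was called between MI+BPD and MI. Il13ra1 (0.26 ± 0.07, adjusted p = 0.0115) and Il2rg (0.60 ± 0.23, 0.0490) were called here and not in MI. The largest changes were Il7r (3.77 ± 0.56), Il6 (3.51 ± 0.58; 5.21 without Sham 3), Il33 (3.01 ± 0.58; 2.24 without MI+BPD 1), Il18rap (2.65 ± 0.51) and Il21r (2.46 ± 0.31). Il15 fell by 1.41 ± 0.20 on the log2 scale and Il10rb by 0.86 ± 0.14. The rise of Il1b (2.40 ± 0.67, adjusted p = 0.0123) was not called in limma-voom (1.99, adjusted p = 0.110), without a filter (0.0583) or without MI 1 and MI+BPD 1 together (0.0553). Il2rg lost its call in 7 of the 9 fits without 1 library, and Il34, Il2rb, Il3ra, Il11ra1, Il11 and Il13ra1 in 5, 5, 4, 4, 2 and 1 of them.

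Genes that work with the interleukins without carrying their symbol were set beside them: 58 ligands, receptor chains, kinases and regulators, of which 55 were tested. In MI against Sham 32 were called higher, 12 lower and 11 not, and in MI+BPD against MI 0 were called (10 had an unadjusted p under 0.05). With library totals only 1 of the 12 stayed called lower. The values of Ctf1, Lifr, Stat5a, Stat5b, Tollip and Cish stayed negative. Those of Jak1, Socs6, Irak1, Tab1, Tab2 and Map3k7 turned positive, and all of these but Tab1 were then called higher. The calls thus depend on the scaling, and in the second set the direction does as well. The counts per list below stand beside the 37.0% of all tested genes called higher and 31.9% called lower; those of the kinases, STATs and adaptors are near these shares. Among 7 tested gp130 and common beta ligands 6 rose and Ctf1 fell. Clcf1, a cardiotrophin-like cytokine, rose by 1.87 ± 0.29 and Lif, the leukaemia inhibitory factor, by 2.98 ± 0.58 (adjusted p = 0.000365 and 0.00143). Of 9 receptor chains 5 rose, among them Csf2ra (1.57 ± 0.14) and Csf2rb2 (2.95 ± 0.26), chains for GM-CSF and IL-3, and the oncostatin M receptor Osmr (1.30 ± 0.13). Lifr fell by 0.80 ± 0.15, but by 0.06 with library totals (adjusted p = 0.718).

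Downstream of the receptors the picture was mixed. Of 11 Janus kinases and STATs 5 rose and 3 fell. Tyk2 rose by 0.68 ± 0.09. Stat5b, a STAT used by common gamma receptors, fell by 0.86 ± 0.10 (adjusted p = 9.69e-05), and by 0.13 with library totals (adjusted p = 0.169). Stat4, the STAT of IL-12 signalling, had no count in Sham and 49 over MI, 8.10-fold higher when set against 3 counts over Sham. Of 8 SOCS genes, the feedback inhibitors of these kinases, 5 rose and 2 fell. Socs3, which inhibits gp130, measured 2.93, 4.02 and 2.97 CPM in Sham against 9.07, 9.57 and 7.92 in MI and 14.5, 9.91 and 13.8 with MI+BPD, a rise of 1.42 ± 0.19 in MI (adjusted p = 0.000196). Cish fell by 1.31 ± 0.26 and was the gene that stayed called with library totals (0.60, adjusted p = 0.0179), whereas the sign of Socs6 turned. Of 13 adaptors and kinases of the IL-1 and IL-17 receptors 4 rose, among them Myd88 (0.67 ± 0.10), the inhibitory kinase Irak3 (1.15 ± 0.15) and the NF-kB cofactor Nfkbiz (1.68 ± 0.15), and 5 fell, led by Tollip at 0.78 ± 0.09 (adjusted p = 9.15e-05; 0.04 and 0.595 with library totals). All 7 inflammasome genes, whose products mature IL-1 beta and IL-18, were called higher, from Pycard (0.44 ± 0.13) to Aim2 (1.95 ± 0.22), with Casp1 at 1.14 ± 0.19 and Nlrp3 at 1.47 ± 0.27.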

How the data were processed

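The authors deposited 1 table of whole-number read counts, with a row per gene symbol, a column per library and no normalization. STAR was used for alignment, per the submitters' processing notes, which name the builds mm10, GRCm39 and mm39 with no role. Which version of STAR, which counting program, strand setting or annotation was used is not given in the sources used here, and no coordinates of the counted genes are printed; promoter positions belong to the RefSeq GRCm38.p6 table. Libraries were 150 bp paired-end, per the labels' protocols. Reads carry no molecular identifiers, so floors and intervals cover counting error only.

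Groups came from the treatment labels. Counts were fitted in R 4.3.3 with edgeR 4.0.16: TMM factors, genes kept by filterByExpr at a minimum count of 10 and a total of 15, then a quasi-likelihood fit (robust) on group with all 9 libraries and 6 residual degrees of freedom. This left 15138 genes, with a biological coefficient of variation of 0.167. Tests were two-sided, with Benjamini-Hochberg adjustment over all genes tested, and 0.05 as threshold. Standard errors follow from the F statistic. CPM uses TMM-scaled sizes, and levels per kb use GENCODE M21 exon unions; all 83 symbols are GENCODE M21 names. Count ratios of paired genes used a pseudocount of 0.5 and an exact permutation test. Where Sham had 0 counts over its 3 libraries, folds are taken against 3 counts over the group. They leave out the counting error of the MI counts and are no confidence bounds.

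Members, partner lists and marker lists were chosen with earlier results of these data known. Values per library are given for genes called in MI against Sham whose groups are apart with a mean of at least 1 CPM, the 5 of smallest p in each direction in MI+BPD against MI, and a panel of 27 genes; other genes named for low counts were chosen after their values were seen. Up to 3 partners of smallest adjusted p per list are named, and Myd88, Pycard, Casp1, Nlrp3 and the partners called lower in MI against Sham (Lifr and Ctf1 among them) besides. The values of 1 listed partner are not reported here. Alternatives were DESeq2 1.42.0, limma-voom (limma 3.58.1), other scaling factors, other filters, a replicate block, only the groups compared, MI 1 and MI+BPD 1 left out together, and each library left out. The procedure was tested on simulated counts.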

Additional observations from a re-analysis of the deposited data

How the results depend on the processing

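Of the 32 calls in MI against Sham, 30 to 32 remained in each alternative, and only Il17d and Il18r1 were lost in any. Most alternatives also added calls. With no filter these were Il9r, Il1r2, Il13ra2, Il2rg and Il1rapl1, and with library totals Il13ra1, Il1rl1, Il2rg, Il20rb and Il18bp. Library totals in place of TMM scaling moved the median log2 change of all genes from 0.07 to 0.81 in MI against Sham, with 53.6% and 85.6% of called genes higher, and kept all 32 calls. Partners called lower went from 12 to 1 there, and from 11 to 2 in MI+BPD against Sham. Members called higher in MI+BPD against MI were 1 with limma-voom and 0 to 1 when 1 library was left out, Il15 both times. Il18bp turned with library totals in MI against Sham (0.44) and in MI+BPD against Sham (0.25). In MI+BPD against MI, Il13ra1 turned with library totals (-0.11), and Il4ra turned with library totals (-0.017), limma-voom (-0.13) and MI 1 and MI+BPD 1 left out together (-0.0196), and ran from -0.0434 to 0.41 when 1 library was left out. Leaving out 1 library gave -0.12 to 6.07 for Il1a and -0.33 to 1.76 for Il1rn in MI against Sham, and -1.88 to 4.93 for Il1a in MI+BPD against Sham. The upper values of Il1a come without Sham 3, where Sham is at 0, and are fitted values, not folds or bounds. Without Sham 3, Il1rn (2.51) and Il1rl1 (1.03) passed in MI+BPD against Sham. The log2 ratio of Il1r2 to Il1r1, with Il1r2 at 0 in Sham, moved from 1.44 to -0.27 with a pseudocount of 2. Apart from shifts shown by the scaling or the fewer libraries, the cause was not tested. Same-numbered libraries had correlations of -0.16 to 0.19 between groups, and other pairs -0.28 to 0.21. No label says that a number pairs libraries, and with 3 libraries per group these values cannot decide it. With a replicate block 30 members were called higher in MI against Sham (Il2rg added, adjusted p = 0.0457) and 26 in MI+BPD against Sham (Il34 lost, 0.0604). Depth limits the 44 untested genes, where 1 read is worth 0.0396 to 0.0915 CPM.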
